A study of Apis mellifera ligustica with 11 samples.

Results

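The protein kinases of the honeybee brain table were taken as every gene whose description contains the words serine/threonine-protein kinase, tyrosine-protein kinase, mitogen-activated protein kinase or cyclin-dependent kinase, leaving out Camkii and Pkc. The words found 142 of 9974 rows, of which 93 matched the serine/threonine term, 14 the tyrosine term, 15 the mitogen-activated term and 20 the cyclin-dependent term. By description 133 of the 142 are kinases. The other 9 are partners that carry a kinase in their name, such as a Cdk5 activator, cyclin-dependent kinase inhibitors and a MAP kinase-binding protein. A further 29 are described only as probable kinases, with names borrowed from other organisms such as the slime mould Dictyostelium.

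The libraries came from brains of Apis mellifera ligustica, the Italian honeybee, sampled before and after exposure to fluvalinate, a pyrethroid used in hives against mites and known to act on voltage-gated sodium channels. The groups were 3 libraries from 1 day before exposure, 2 from day 10 after it (replicates 2 and 3), 3 from day 20 and 3 from day 30. The labels state a normal dosage repeated every 7 days, give no genotype, age or bee caste, and say that glands and pigments were removed during dissection. Unexposed bees of the later days were not analysed here, so exposure and time cannot be told apart. The labels do not say if replicates stem from different colonies, and the p-values reflect only the spread among these libraries, which may be technical.

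Protein kinases move a phosphate from ATP onto serine, threonine or tyrosine residues of other proteins, and phosphatases take it off again. In nerve cells they carry signals from receptors at the membrane to the cytoskeleton, the synapse and the nucleus. Cascades such as that from Raf through a MAP kinase kinase to a MAP kinase pass the phosphate down a chain of kinases, while cyclin-dependent kinases need a bound partner protein to act. These data measure transcripts and not kinase activity.

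All values are FPKM, the authors' fragments scaled by transcript length and by the mapped fragments of the library, so levels of different genes are compared per length. Changes are differences of group means of log2(FPKM + 1), which understates changes of low genes. Each was tested with limma across 7830 genes, those averaging 1 FPKM or more in the 11 libraries together, and called at a Benjamini-Hochberg adjusted p under 0.05. Against before exposure the median gene itself changed by -0.18 log2 on day 10, by -0.11 on day 20 and by 0.03 on day 30. Each gene's log2 change is stated after subtracting that of the median gene, with the standard error of the change, while the p-values test the change as deposited. Of the 142 genes, 121 passed the minimum and 21 did not, and 15 of those 21 are described only as probable. Of the 142, 11 were listed at 0 in at least 1 library and none in all 11.

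Several facts of the whole libraries stand beside every value that rests on the day 10 libraries. The major royal jelly protein genes Mrjp1 to Mrjp7, typical of the hypopharyngeal gland, summed to between 4662 and 12863 FPKM before exposure, 94231 and 126260 in the day 10 libraries, 44155 to 85199 in those of day 20 and 4234 to 36823 in those of day 30. That was 23.9% and 27.0% of all FPKM at day 10, against 1.76% to 4.42% before exposure. The 5 neuron markers (among them Syt1, brp, Para and Syx1A) were present in every library and summed to between 447 and 503 FPKM before exposure, 197 and 281 in the day 10 libraries, 367 to 413 in those of day 20 and 387 to 489 in those of day 30. The 5 glia markers summed to 134 to 171 FPKM before exposure, 88.9 and 109 at day 10, 113 to 171 at day 20 and 153 to 176 at day 30. The 13 muscle markers summed to 348 to 499 FPKM before exposure, 390 and 529 at day 10, 231 to 307 at day 20 and 203 to 352 at day 30. The 6 fat body markers summed to 60.1 to 71.5 FPKM before exposure, 91.7 and 98.3 at day 10, 52.1 to 62.2 at day 20 and 28.7 to 51.2 at day 30. The 8 photoreceptor markers summed to 355 to 687 FPKM before exposure, 751 and 644 at day 10, 705 to 1930 at day 20 and 1219 to 1249 at day 30. Between day 30 and day 10 the glia, photoreceptor, muscle, fat body and neuron sums did not overlap, and neither did the Mrjp sums. No listed gene of these cell types was at 0 in all libraries. In the fat body list Vg, Hex70a and Hex110 were higher in both day 10 libraries than before exposure. LOC726783, also described as vitellogenin, was lower, and HEX70b and Hex70c overlapped. In the photoreceptor list Lop1 was higher in both day 10 libraries, LOC409006 and LOC408985 were lower, and the others overlapped. The part of these shifts in the kinase results was not tested, and in whole tissue fewer cells of a type and less RNA per cell cannot be told apart.

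The kinase transcripts together were lowest at day 10. Their FPKM summed to 2144, 2197 and 2111 in the before-exposure libraries, 1443 and 1713 in those of day 10, 1960, 1835 and 1876 in those of day 20 and 2247, 1887 and 2141 in those of day 30. Both day 10 sums lay below the other 9, and all 3 day 20 sums lay below all 3 before-exposure sums, while day 30 and before-exposure libraries overlapped. As a share of all FPKM the kinases made up 0.308% and 0.435% at day 10, against 0.721% to 0.811% before exposure. With Mrjp1 to Mrjp7 taken out of the total, the shares were 0.739% to 0.825% before exposure, 0.422% and 0.572% at day 10, 0.618% to 0.677% at day 20 and 0.598% to 0.816% at day 30.

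**Figure D1:**
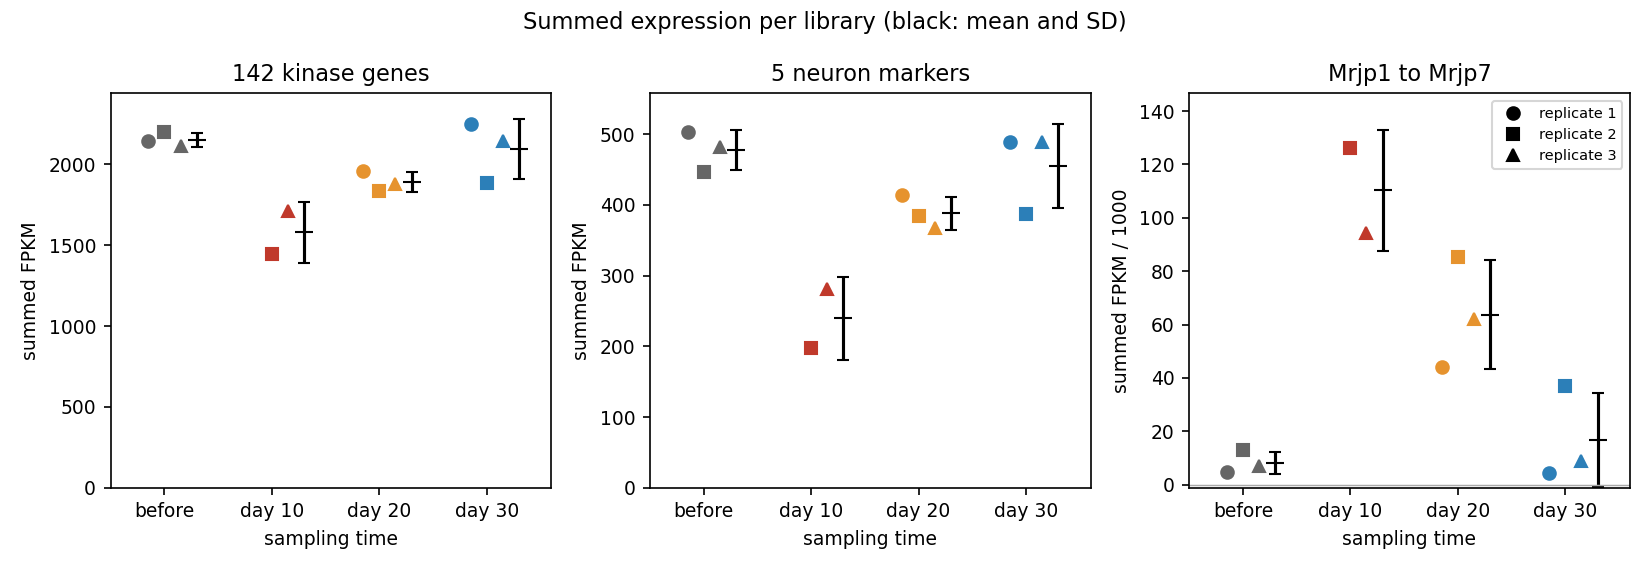
Summed FPKM per library (y axis, linear, rescaled in the right panel as its label says) by sampling time for the 142 kinase genes, 5 neuron markers and Mrjp1 to Mrjp7, with points for libraries, shapes for replicate numbers and black bars for the mean and SD. The kinase and neuron sums are lowest in the day 10 libraries, and the Mrjp sum is highest there, at 94231 and 126260 FPKM.

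Most of the named kinases were transcribed at moderate levels, and 67 of the 142 averaged 10 FPKM or more. The highest level belonged to LOC550929, described as PINK1, which marks damaged mitochondria for removal, with a mean of 147 FPKM and a range of 115 to 166. It was followed by LOC411812 (Doa), a LAMMER kinase of splicing factors in Drosophila, with a mean of 99.7 FPKM and a range of 51.5 to 128. LOC552571 (unc-51), the kinase that starts autophagy, averaged 72.0 FPKM and ranged only from 64.1 to 84.0. The ranges of PINK1 and unc-51 over the libraries did not overlap, and the range of Doa overlapped both. The next levels were the Cdk5 activator LOC411494 at 50.6 FPKM, LOC726051 (PLK1) at 49.3, LOC107965037 (a probable kinase) at 45.6, LOC413029 (OSR1) at 42.3, LOC412588 (Src42A) at 40.9, LOC413430 (RAC, the Akt kinase of insulin signalling) at 39.4 and LOC410717 (MARK2) at 32.4. Each of these overlapped its neighbour in the order over the libraries. All genes were measured in the same libraries, so overlapping ranges do not show equal levels, and differences between neighbours were not tested.

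By role, the median level was 14.9 FPKM for the 7 growth and AGC kinases, 14.03 for the 7 AMPK-related and polarity kinases, 12.5 for the 18 members of the MAP kinase cascade, 12.2 for the 13 STE20, Hippo and cytoskeleton kinases, and 11.2 for the 14 tyrosine kinases. It was 9.24 FPKM for the 9 mitosis and cell cycle kinases and 7.32 for the 20 cyclin-dependent kinases and partners. The 29 probable kinases had a median of 0.864 FPKM. The highest of them was LOC107965037 at 45.6 FPKM, and 14 of the 29 reached the minimum for testing. Between libraries the most variable tested kinases were LOC413633 (BRSK2) with an SD of 0.58 log2, LOC410671 (ROS) with 0.53, LOC413510 (an SNF-related kinase) with 0.51, LOC412917 (a probable dyrk2) with 0.51 and LOC409193 (microtubule-associated kinase 3) with 0.49. For LOC413510 the low value was a single library, replicate 1 of the before-exposure group with 3.61 FPKM, while the other two of that group had 13.7 and 14.8 FPKM.

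Day 10 was compared with before exposure to see how kinase transcripts stood at the earliest sampling after exposure. The labels state a dosage repeated every 7 days, so day 10 need not mean 10 days without exposure. Of the 121 tested kinase genes 31 fell (25.6%), 1 rose and 89 were not called. Among all genes tested 16.9% fell and 2.22% rose. At an unadjusted p under 0.05 there were 53 lower kinases (43.8%, against 28.6% of all genes) and 1 higher (against 5.01%). The groups did not overlap for 76 kinase genes that were lower at day 10 (62.8%, against 38.3% of all genes) and for 4 that were higher (3.31%, against 9.74% of all genes). The median kinase lay 0.18 log2 below the median gene, with a change of -0.36 as deposited. Day 10 gave the lowest of the 4 group means for 97 of the 121 (80.2%), against 54.0% of all genes.

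The number of kinases that pass at day 10 depends on scaling and on single libraries. Each library was also scaled to its median ratio, which moves the median gene to 0.02. With this scaling 10 kinase genes fell (8.26%, against 5.95% of all genes) and 1 rose (against 3.97%), all among the calls above. The 10 were LOC413633, LOC107965037, LOC408295, LOC411494, LOC409127, LOC100576709, LOC409111, LOC411566, LOC412667 and LOC413029, and the 1 that rose was LOC409409. The other kinase genes called lower above, Cdk5 among them, were not called with this scaling. With quantile normalization 11 fell (9.09%, against 7.01% of all genes) and 1 rose (against 4%). Without day 10 replicate 2 no kinase was called by limma, with 27 at an unadjusted p under 0.05, all of them lower, and 2 of all genes tested were called. Without before-exposure replicate 3, 19 kinases were called, all lower (15.7%, against 10.1% of all genes).

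**Figure D2:**
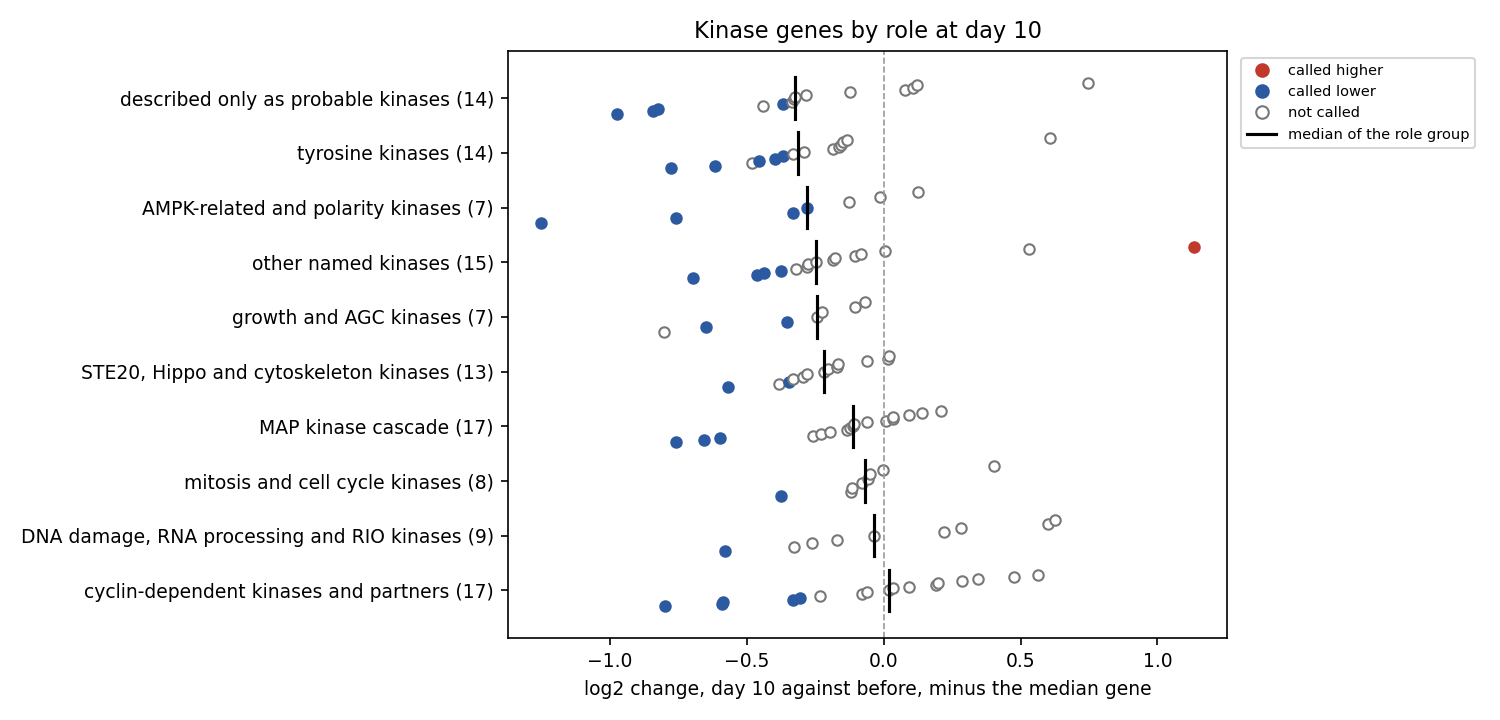
Log2 change of each of the 121 tested kinase genes (points) at day 10 against before exposure, relative to the median gene (x axis), by role group (y axis, number tested in brackets), with a black line at each group's median. Filled blue points were called lower, the filled red point higher, and the cyclin-dependent group has its median at 0.02 while the tyrosine group has it at -0.31.

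Among the AMPK-related and polarity kinases 4 of 7 fell (57.1%, against 16.9% of all genes), with a group median of -0.28 relative to the median gene. With median-ratio scaling only LOC413633 of these 4 was called. LOC413633 (BRSK2), which in mammals shapes axons and nerve terminals, had 5.21 and 8.65 FPKM at day 10, against 25.2, 17.2 and 18.0 FPKM before exposure. Both day 10 libraries were far below all 3 before-exposure libraries, and they were also below the other 6. Its mean was 6.93 ± 2.43 FPKM at day 10 (SD, n = 2) and 20.1 ± 4.43 FPKM before exposure (SD, n = 3), a relative change of -1.25 ± 0.26 log2 with an adjusted p of 0.00631 from limma. LOC413736 (SIK2), a kinase of CREB coactivators, had 8.43 and 15.8 FPKM at day 10, against 21.6, 26.7 and 21.3 FPKM before exposure. Its relative change was -0.76 ± 0.24 log2 (adjusted p = 0.0207, limma), and replicate 2 of day 10 lay well under replicate 3. LOC410717 (MARK2), the Par-1 kinase of microtubule-associated proteins, changed by -0.33 ± 0.13 (adjusted p = 0.0192) and LOC412260 (SIK3-like) by -0.28 ± 0.13 (adjusted p = 0.0308). LOC551198 (STK11, or LKB1), the kinase known in mammals to activate this family, was not called, with 8.36 and 7.39 FPKM at day 10, against 8.73, 10.7 and 8.08 FPKM before exposure.

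Of the 14 tyrosine kinases 5 fell (35.7%, against 16.9% of all genes), and the group median was -0.31. LOC409127 (Abl), which links axon guidance receptors to actin, had 16.3 and 21.4 FPKM at day 10, against 44.2, 34.4 and 33.7 FPKM before exposure. The day 10 libraries were the lowest of all 11, and the relative change was -0.78 ± 0.15 log2 (adjusted p = 0.00568, limma). LOC412667 (Ret), whose vertebrate counterpart is a receptor for GDNF-family growth factors, had 4.85 and 6.44 FPKM at day 10, against 10.3, 10.9 and 10.1 FPKM before exposure, a relative change of -0.61 ± 0.16 (adjusted p = 0.00828). The Wnt-binding receptor Ror (LOC413616, -0.40 ± 0.15), Src64B (LOC413464, -0.46 ± 0.17) and Btk29A (LOC410649, -0.37 ± 0.14) also fell, with adjusted p-values from 0.0221 to 0.0236. The most abundant member, Src42A (LOC412588), was not called, with 33.3 and 38.8 FPKM at day 10, against 43.5, 47.5 and 43.7 FPKM before exposure. CSK (LOC409908), the kinase that restrains Src kinases, and hopscotch (LOC726002), the JAK kinase, were not called either (adjusted p = 0.0813 and 0.227). Fer (LOC411582) stood on the other side at 15.4 and 11.4 FPKM at day 10, against 9.52, 12.2 and 7.58 FPKM before exposure, but the groups overlapped and it was not called.

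Of the 17 tested cyclin-dependent kinases and partners 5 fell (29.4%, against 16.9% of all genes) and 12 were not called. The group's median was close to that of all genes, at 0.02. The genes that fell included a working pair, Cdk5 and its activator, which act in nerve cells that no longer divide. The activator LOC411494 had 23.9 and 38.1 FPKM at day 10, against 74.5, 51.7 and 57.0 FPKM before exposure, so that the groups did not overlap. The relative change was -0.80 ± 0.21 log2 (adjusted p = 0.0106, limma). Cdk5 itself changed less, with 18.9 and 19.9 FPKM at day 10 and 28.8, 25.9 and 27.9 FPKM before exposure, a relative change of -0.31 ± 0.12 (adjusted p = 0.0196). The difference between these changes was not tested. With median-ratio scaling the activator was still called (adjusted p = 0.0396, limma), and Cdk5 was not. LOC409965 (CDK12), a kinase of RNA polymerase II, changed by -0.59 ± 0.20 (adjusted p = 0.0205), LOC552617 (CDK14) by -0.33 ± 0.12 (adjusted p = 0.0137) and LOC408406 (CDK4) by -0.59 ± 0.25 (adjusted p = 0.0486). CDK4 is a low gene, with 1.11 and 1.93 FPKM at day 10, against 3.71, 2.39 and 3.73 FPKM before exposure.

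In the MAP kinase cascade 3 of 17 tested members fell (17.6%, close to the 16.9% of all genes), and the group median was -0.11. LOC411566 (MAP kinase kinase kinase 11), a mixed-lineage kinase upstream of JNK, had 9.73 and 14.5 FPKM at day 10, against 22.5, 22.9 and 20.7 FPKM before exposure. Its relative change was -0.66 ± 0.17 log2 (adjusted p = 0.00837, limma). LOC100576709, a MAP kinase-binding protein and not a kinase, had 15.8 and 25.8 FPKM at day 10, against 41.2, 37.6 and 40.2 FPKM before exposure, a relative change of -0.76 ± 0.18 (adjusted p = 0.00724). LOC410956, the Nemo-like kinase NLK of Wnt signalling, changed by -0.60 ± 0.21 (adjusted p = 0.0235).

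LOC411915 (p38b), a stress-responsive MAP kinase, was not called at day 10. It had 21.9 and 21.8 FPKM at day 10, against 22.0, 26.5 and 24.3 FPKM before exposure, a relative change of 0.03 ± 0.14 log2 (adjusted p = 0.501, limma). LOC408917 (MAPK15) averaged 0.817 FPKM and was not tested. Higher in the cascade, Raf (LOC413448) had a relative change of -0.19 ± 0.13 and an adjusted p of 0.0582, and the MAP kinase kinase dSOR1 (LOC409925) one of -0.06 ± 0.20 with an adjusted p of 0.445. In the JNK and p38 branches hemipterous (LOC413389), MAP kinase kinase 4 (LOC410575), MAP kinase kinase 6 (LOC725374) and the TAK1 kinase (LOC413809) had adjusted p-values from 0.267 to 0.927.

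Of the 13 STE20, Hippo and cytoskeleton kinases 2 fell (15.4%, close to the 16.9% of all genes). All 13 changes were below 0 as deposited, as were those of 5244 of all 7830 genes, and the group median was -0.22 relative to the median gene. LOC413029 (OSR1), which in mammals sets the activity of chloride cotransporters, had 25.4 and 35.1 FPKM at day 10, against 54.9, 50.6 and 47.4 FPKM before exposure. The groups stood apart, and the relative change was -0.57 ± 0.15 log2 (adjusted p = 0.00774, limma). LOC408519 (STK10) changed by -0.35 ± 0.15 (adjusted p = 0.0337). The Hippo pathway kinases were not called: LOC410208 (serine/threonine kinase 3, the Hippo kinase) had 24.6 and 24.8 FPKM at day 10, against 32.5, 31.8 and 30.8 FPKM before exposure, and Warts (LOC411678) had an adjusted p of 0.0716.

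Of the 7 growth and AGC kinases 2 fell (28.6%, against 16.9% of all genes). LOC413577 (STK32B) had 7.03 and 10.9 FPKM at day 10, against 13.0, 16.6 and 20.1 FPKM before exposure, a relative change of -0.65 ± 0.22 log2 (adjusted p = 0.0239, limma), and LOC725923 (serine/threonine kinase N) changed by -0.35 ± 0.17 (adjusted p = 0.0463). The insulin and nutrient kinases were not called, with relative changes of -0.10 ± 0.14 for RAC (LOC413430) and -0.24 ± 0.23 for mTOR (LOC409393). LOC409193, a microtubule-associated kinase, had a relative change of -0.80 ± 0.33 and an adjusted p of 0.0541, and its before-exposure libraries ranged from 7.72 to 18.6 FPKM.

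Of the 8 tested mitosis and cell cycle kinases 1 fell (12.5%, near the 16.9% of all genes). The groups did not overlap for 6 of the 8, all lower at day 10 (75.0%, against 38.3% of all genes). The gene that fell was the chromatin kinase tousled-like 2 (LOC551673), with a relative change of -0.37 ± 0.12 log2 (adjusted p = 0.012, limma). PLK1 (LOC726051), polo (LOC413261), PLK4 (LOC550739) and the greatwall kinase (LOC411080) were not called, with relative changes between -0.11 and -0.05. Among the 9 kinases of DNA damage, RNA processing and ribosome assembly, 1 fell (11.1%). It was Doa (LOC411812), with 51.5 and 83.7 FPKM at day 10, against 119, 107 and 109 FPKM before exposure. The relative change was -0.58 ± 0.18 (adjusted p = 0.015). The DNA damage checkpoint kinase grp (LOC413964, Chk1) had 7.30 and 5.68 FPKM at day 10, against 3.27, 6.78 and 4.17 FPKM before exposure, and was not called.

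Among the 15 other named kinases 4 fell (26.7%, against 16.9% of all genes) and 1 rose (6.67%, against 2.22%). LOC409111 (minibrain), a DYRK kinase needed for brain growth in Drosophila, had 7.42 and 7.40 FPKM at day 10, against 16.0, 15.4 and 12.1 FPKM before exposure. The relative change was -0.70 ± 0.17 log2 (adjusted p = 0.00762, limma), and its 2 day 10 libraries were nearly equal. The Hedgehog kinase fused (LOC726525, -0.44 ± 0.16), STK17A (LOC551895, -0.38 ± 0.15) and meng-po (LOC410562, -0.46 ± 0.20) also fell, with adjusted p-values from 0.019 to 0.0413. The only one of the 121 kinases called higher was LOC409409 (dyf-5), which in Caenorhabditis elegans controls the length of sensory cilia, with 9.39 and 8.44 FPKM at day 10, against 3.29, 5.61 and 3.68 FPKM before exposure. Its relative change was 1.13 ± 0.30 (adjusted p = 0.0451), and this call was lost under 10 of 18 alternative settings. The abundant PINK1 (LOC550929) and unc-51 (LOC552571) were not called, with adjusted p-values of 0.08 and 0.148, and neither was pelle (LOC551608), the kinase of Toll signalling, with a relative change of 0.53 ± 0.25.

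Of the 14 tested probable kinases 4 fell (28.6%, against 16.9% of all genes). LOC107965037 had 21.4 and 28.8 FPKM at day 10, against 66.9, 48.1 and 56.0 FPKM before exposure. Its relative change was -0.98 ± 0.17 log2 (adjusted p = 0.00568, limma), and the groups were far apart. LOC408295 and LOC100577905 share their description with LOC100577795 and the untested LOC100576227. Whether reads are shared among these genes was not tested. LOC408295 had a relative change of -0.84 ± 0.23 (adjusted p = 0.0118, limma) and LOC100577905 one of -0.82 ± 0.29 (adjusted p = 0.0308). LOC724810 (a probable dyrk2) changed by -0.37 ± 0.16 (adjusted p = 0.0337). LOC725368 was higher in both day 10 libraries without passing, at 20.4 and 21.1 FPKM, against 13.3, 18.1 and 10.5 FPKM before exposure (adjusted p = 0.204).

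**Figure D3:**
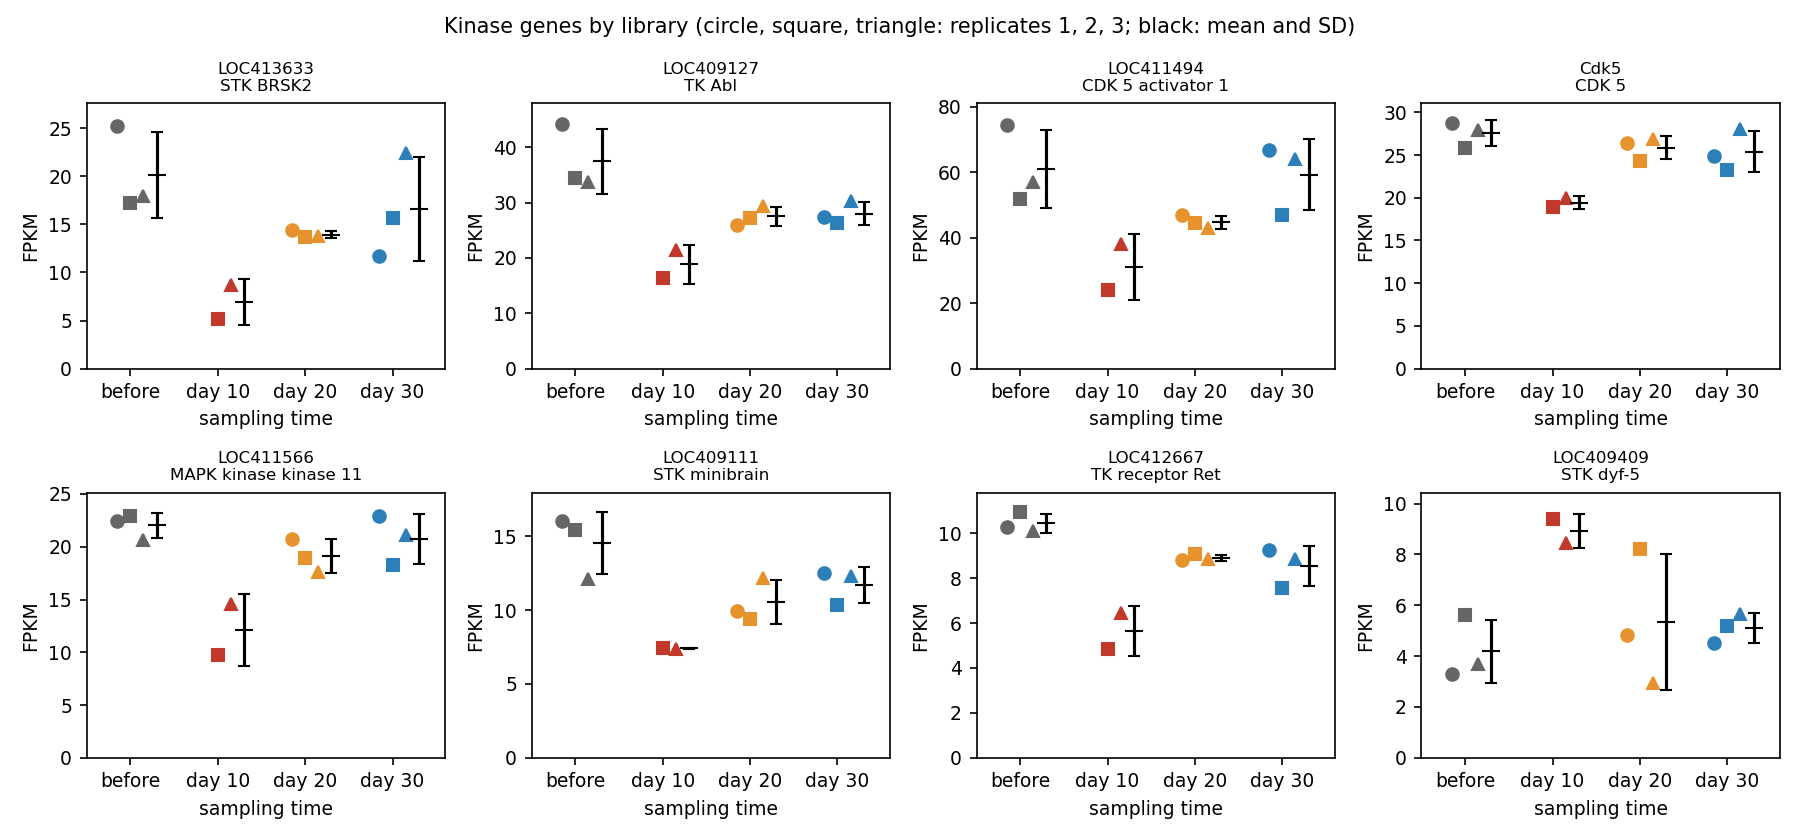
FPKM (y axes, linear from 0) of 8 kinase or partner genes by sampling time, with points for libraries, shapes for replicate numbers and black bars for the mean and SD. In 7 panels both day 10 libraries lie below the before-exposure libraries, as with BRSK2 at 5.21 and 8.65 FPKM, and in the dyf-5 panel they lie above.

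The 31 kinases that fell were picked by this contrast, and their order over libraries is given as a description. Day 10 replicate 2 was the lowest of all 11 libraries for 28 of them, and both day 10 libraries lay below the other 9 for 29. Without picking, replicate 2 was the lowest library for 57.9% of the 121 tested kinases and 39.8% of all genes tested. The median of the 31 was -0.97 log2 against the before-exposure mean in day 10 replicate 2 and -0.52 in replicate 3. For all 1326 genes called lower by the same contrast, these medians were close, at -0.89 in replicate 2 and -0.53 in replicate 3. Across the 121 tested kinases these medians were -0.47 in replicate 2 and -0.24 in replicate 3, while the median of all genes was -0.24 in replicate 2 and -0.12 in replicate 3. Replicate 2 also had the higher Mrjp sum of the pair, 126260 against 94231 FPKM, and the lower neuron marker sum, 197 against 281 FPKM.

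**Figure D4:**
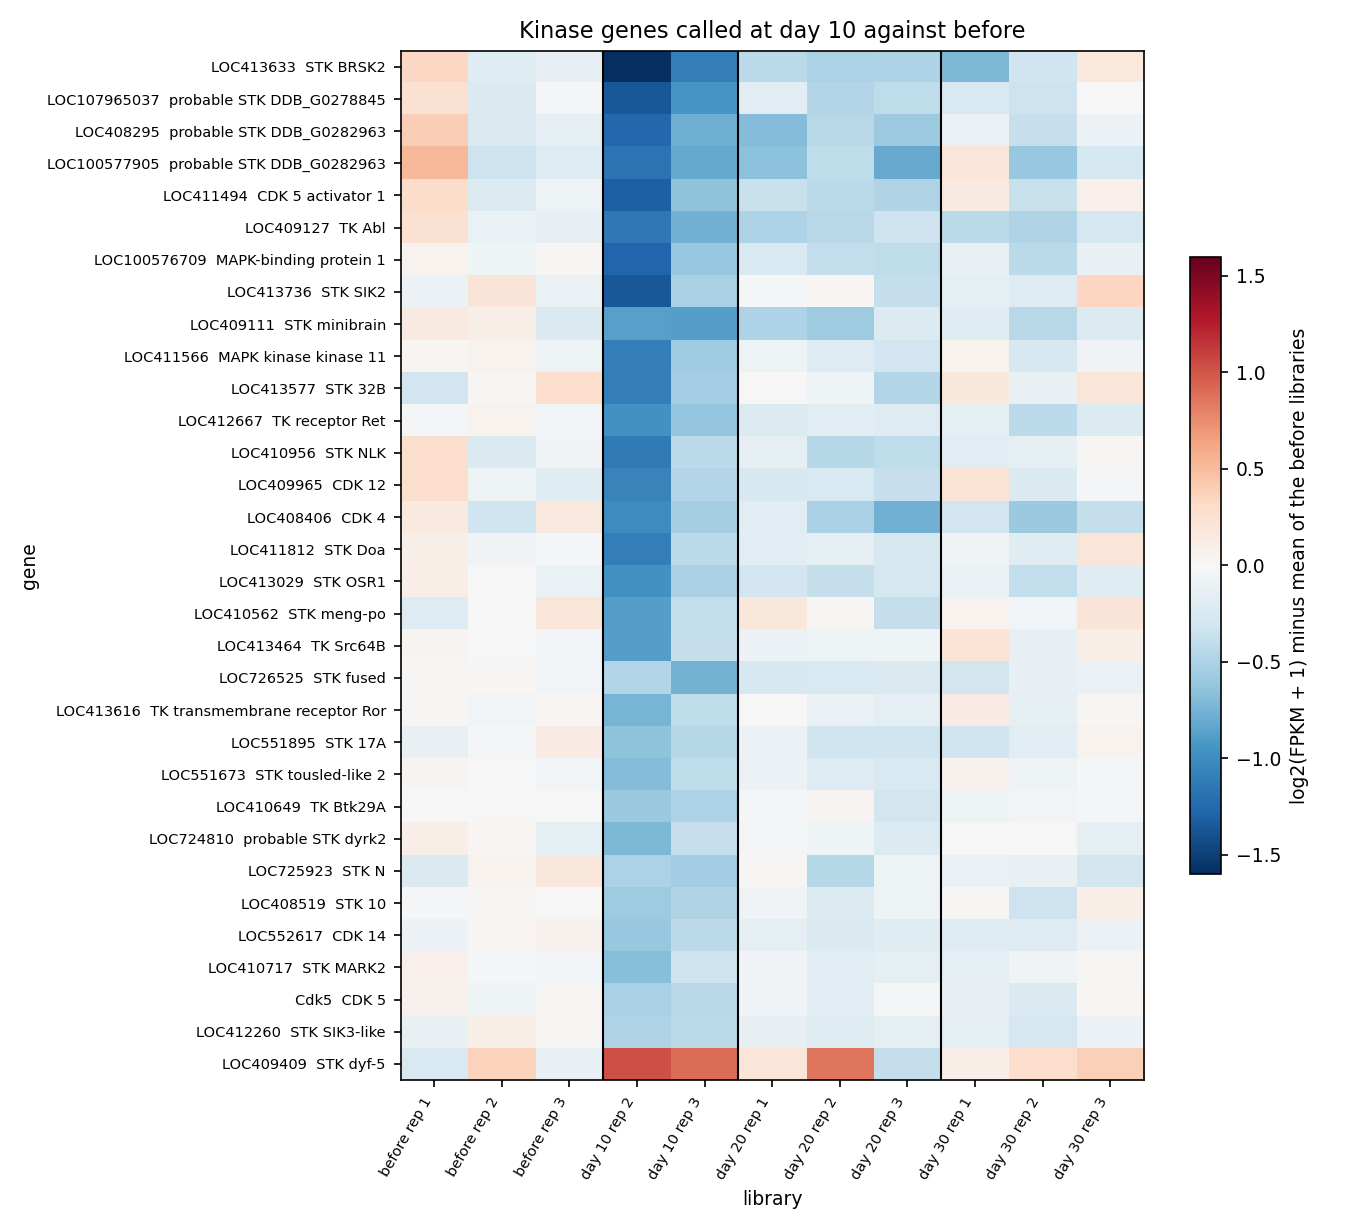
Colour gives log2(FPKM + 1) minus the mean of the before-exposure libraries for the 32 kinase genes called at day 10 (rows) in each of the 11 libraries (columns, with black lines between groups). Blue is lower and red higher, and the darkest blue column is day 10 replicate 2, where the 31 lower kinases have a median of -0.97.

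At day 20 none of the 121 kinase genes was called against before exposure by limma, and none of all 7830 genes was. At an unadjusted p under 0.05 there were 12 lower kinases and 0 higher, against 8.61% lower and 1.28% higher of all genes. The groups did not overlap for 34 kinases, all lower at day 20 (28.1%, against 18.9% of all genes), and 1.63% of all genes were higher without overlap. The median kinase lay at -0.03 relative to the median gene. Abl (LOC409127) had the smallest p of the members, with 26.0, 27.2 and 29.3 FPKM at day 20, against 44.2, 34.4 and 33.7 FPKM before exposure. These groups did not overlap, but the adjusted p was 0.389. Minibrain (LOC409111), LOC408295, the Hippo kinase (LOC410208) and OSR1 (LOC413029) followed, with relative changes between -0.46 and -0.17 and adjusted p-values from 0.431 to 0.454. On the higher side the smallest p belonged to LOC552597, a regulatory subunit of cyclin-dependent kinases, with 7.69, 4.07 and 5.26 FPKM at day 20, against 1.49, 4.04 and 5.16 FPKM before exposure (adjusted p = 0.536). Dyf-5 (LOC409409), Fer (LOC411582), Aurora-2 (LOC412271) and the MAP kinase-interacting kinase (LOC412470) had adjusted p-values from 0.82 to 0.891.

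At day 30 none of the 121 kinases and none of all 7830 genes was called against before exposure by limma. There were 1 lower and 1 higher kinase at an unadjusted p under 0.05, against 4.28% lower and 2.9% higher of all genes. The groups did not overlap for 11 kinases lower (9.09%, against 7.02% of all genes) and 1 higher (0.826%, against 3.37%). The median kinase lay at -0.06 relative to the median gene. Abl again had the smallest p on the lower side, with 27.4, 26.3 and 30.3 FPKM at day 30, against 44.2, 34.4 and 33.7 FPKM before exposure. All 3 day 30 libraries were lower, and the adjusted p was 0.482. LOC100577795, the STE20 kinase LOC411270, CDK4 (LOC408406) and minibrain (LOC409111) had relative changes between -0.47 and -0.31 and adjusted p-values from 0.702 to 0.726. The regulatory subunit LOC552597 had the largest relative increase in mean of the tested kinases at day 30, with 6.66, 6.24 and 6.23 FPKM at day 30, against 1.49, 4.04 and 5.16 FPKM before exposure. Its groups did not overlap, and its relative change of 0.76 ± 0.30 log2 had an adjusted p of 0.561. TAK1 (LOC413809), CDK10 (LOC409462), CDK8 (LOC100578736) and serine/threonine kinase 26 (LOC410427) had relative changes from 0.16 to 0.40 and adjusted p-values from 0.769 to 0.78.

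The days were then compared with each other to see whether the day 10 levels persisted. These comparisons share libraries with those above. Day 30 against day 10 called 20 kinases higher (16.5%, against 9.41% of all genes) and 0 lower (against 1.37%), with 41 higher and 1 lower at an unadjusted p under 0.05 (26% and 3.58% of all genes). The groups did not overlap for 61 kinases higher at day 30 (50.4%, against 37.6% of all genes) and 1 lower (against 5.68%). BRSK2 (LOC413633) had 11.7, 15.7 and 22.4 FPKM at day 30, against 5.21 and 8.65 FPKM at day 10, a relative change of 0.93 ± 0.26 log2 (adjusted p = 0.0305, limma). The Cdk5 activator LOC411494 had 66.7, 46.9 and 64.1 FPKM at day 30, against 23.9 and 38.1 FPKM at day 10, a relative change of 0.72 ± 0.21 (adjusted p = 0.0309). LOC107965037 had 47.4, 44.5 and 56.7 FPKM at day 30, against 21.4 and 28.8 FPKM at day 10 (0.75 ± 0.17, adjusted p = 0.0254). SIK2 (LOC413736) had a relative change of 0.71 ± 0.24 (adjusted p = 0.0389) and STK32B (LOC413577) one of 0.70 ± 0.22 (adjusted p = 0.0343). No library of day 30 overlapped day 10 in these 5 genes, which was a condition for naming them.

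These 20 calls rest on few libraries and on the scaling. None was made with median-ratio scaling, with quantile normalization, with day 30 and day 10 fitted alone, or without day 10 replicate 2, day 30 replicate 1 or day 30 replicate 3. Of all genes, 0.179% were higher and 0.524% lower with median-ratio scaling, and 0.83% higher and 1.09% lower with quantile normalization. With median-ratio scaling 21 of 121 kinases were higher and 3 lower at an unadjusted p under 0.05, against 882 and 728 of all 7830 genes. The count of kinases called, all higher, was 10 without before-exposure replicate 2 (8.26%, against 5.2% of all genes). It was 7 without before-exposure replicate 3 (5.79%, against 4.25%) and 9 without day 20 replicate 1 (7.44%, against 4.92%). It was 5 without day 20 replicate 2 (4.13%, against 4.01%) and 5 without day 20 replicate 3 (4.13%, against 3.31%). With no filter on low values it was 5 (3.52%, against 2.87%).

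Day 20 against day 10 called no kinase by limma (0.0255% of all genes were higher and 0.0766% lower), with 28 higher and 3 lower at an unadjusted p under 0.05, against 15.6% higher and 5.17% lower of all genes. The groups did not overlap for 53 kinases higher at day 20 (43.8%, against 28.5% of all genes) and 7 lower (5.79%, against 16.8%). LOC107965037 had the smallest p, with 49.6, 40.6 and 42.2 FPKM at day 20, against 21.4 and 28.8 FPKM at day 10 (adjusted p = 0.0818). MAP kinase kinase kinase 11 (LOC411566), BRSK2 (LOC413633), Ret (LOC412667) and Abl (LOC409127) followed, with adjusted p-values from 0.0952 to 0.104. On the lower side LOC725368, dyf-5 (LOC409409), pelle (LOC551608), CDK20 (LOC552469) and Lok (LOC551949) had adjusted p-values from 0.194 to 0.388. Without day 10 replicate 3, which leaves 1 day 10 library, the median kinase changed by 0.31 log2 as deposited and the median gene by 0.14. Day 30 against day 20 called none of the kinases and none of all 7830 genes by limma. It had 0 kinases at an unadjusted p under 0.05, where 5.7% of all genes were higher and 0.728% lower. The groups did not overlap for 10 kinases higher at day 30 (8.26%, against 13.4% of all genes) and 0 lower (against 1.42%). Its smallest adjusted p was 0.651, for PLK1 (LOC726051), Lok (LOC551949), the Cdk5 activator LOC411494, pelle (LOC551608) and LOC408295 on the higher side. On the lower side RAC (LOC413430), ULK3 (LOC413467), STK11 (LOC551198) and Ret (LOC412667) had adjusted p-values from 0.777 to 0.895.

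Of the 31 kinases that fell at day 10, all 31 had a higher mean at day 20 and at day 30 than at day 10. They were picked for low day 10 values, so higher later means follow at least in part from the choice. Their day 20 mean was below the before-exposure mean in 31 and their day 30 mean in 26, as values that share the before-exposure libraries and have no test of their own.

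**Figure D5:**
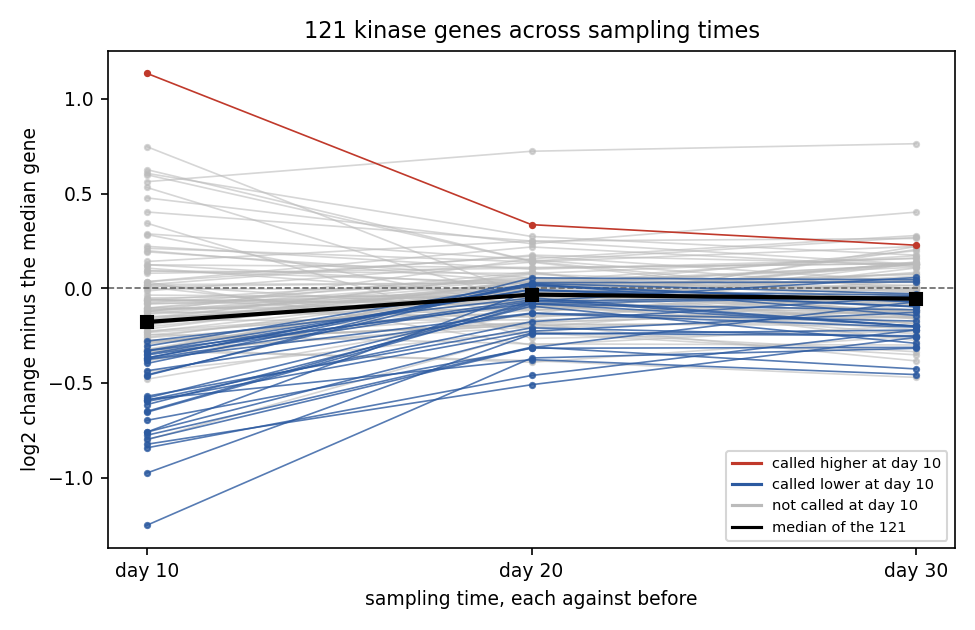
Log2 change against before exposure, relative to the median gene (y axis), of the 121 tested kinase genes (lines) at days 10, 20 and 30 (x axis), with the median in black. The median is -0.18 at day 10, -0.03 at day 20 and -0.06 at day 30, and all 3 comparisons share the before-exposure libraries.

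Other genes of phosphorylation signalling were taken from word lists. Of 58 tested protein phosphatases 13 fell (22.4%, against 16.9% of all genes) and 1 rose (1.72%, against 2.22%) at day 10, with a median of -0.11 relative to the median gene. LOC408949, a targeting subunit of phosphatase 2A, averaged 28.6 ± 3.87 FPKM at day 10 (SD, n = 2) and 55.1 ± 2.57 FPKM before exposure (SD, n = 3), a relative change of -0.75 ± 0.13 log2 (adjusted p = 0.00563, limma). Lar (LOC413569), a receptor phosphatase that acts with Abl in axon guidance in Drosophila, averaged 14.5 ± 3.12 FPKM at day 10 and 28.6 ± 5.49 FPKM before exposure, a relative change of -0.75 ± 0.17 (adjusted p = 0.00673). The receptor phosphatase LOC412960 and the non-receptor phosphatase LOC411227 had relative changes of -0.84 ± 0.19 and -0.60 ± 0.15. The phosphatase that rose was LOC413165, regulatory subunit 7 of phosphatase 1, with a mean of 10.6 ± 1.46 FPKM at day 10 and a relative change of 1.15 ± 0.24 (adjusted p = 0.0172).

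Both 14-3-3 proteins, which bind phosphorylated partners, fell at day 10, where 16.9% of all genes fell. The relative changes were -0.47 ± 0.14 log2 for epsilon (LOC408951, adjusted p = 0.0118, limma) and -0.60 ± 0.23 for zeta (LOC102655329, adjusted p = 0.0323). Of 13 genes found by the cyclin words 2 fell (15.4%, near the 16.9% of all genes), with a median of 0.002 relative to the median gene. The 2 were cyclin-D2 (LOC413183) and LOC413462, which despite the word is itself a kinase. Protein kinases whose descriptions use other words gave 16 that fell of 47 tested (34.0%, against 16.9% of all genes) and 1 that rose (against 2.22%), with a median of -0.18. Camkii averaged 63.3 ± 12.9 FPKM at day 10 and 121 ± 17.3 FPKM before exposure, a relative change of -0.75 ± 0.16 (adjusted p = 0.00609), and the calcium-independent protein kinase C LOC724607 had one of -0.65 ± 0.14 (adjusted p = 0.00602). Pkc and the calmodulin kinase LOC727249 had relative changes of -0.61 ± 0.16 and -0.41 ± 0.12. None of these lists had a call at day 20 or day 30 against before exposure. The JNK kinase LOC409286, the target of the MAP kinase kinase kinase 11 branch and chosen for mention after its values were seen, averaged 34.9 FPKM at day 10 and 63.1 FPKM before exposure, a relative change of -0.69 ± 0.19 (adjusted p = 0.0111).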

How the data were processed

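The authors deposited 1 table of FPKM per gene and library, rounded to 2 decimals, and FPKM is stated per the file headers. Per the submitters' processing notes the tools were StringTie, HISAT2 2.1.0 and fastp 0.18.0, with no roles stated, and the build is not given in the sources used here. The table has 12 FPKM columns, of which 11 match a labelled library and 1 was not used. FPKM keep no read counts, so depth is unknown and precision comes from the spread between libraries. Overlapping genes and near-identical copies may share reads.

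Log2(FPKM + 1) values were fitted with limma 3.58.1 (R 4.3.3), with group means of all 11 libraries, a mean-variance trend and adjustment by Benjamini and Hochberg over 7830 genes in each of 6 comparisons. The step was tested on simulated data. Members, role groups and lists were chosen with earlier results of these data known, and role groups follow the descriptions. All 142 identifiers matched the RefSeq table of Amel_HAv3.1, used for names only. Named genes are up to 12 per direction at each day against before exposure and 5 between days (largest called changes without overlap, else the 5 with the smallest p), the 10 highest levels, the 5 most variable, the MAP kinases, BRSK2, up to 3 per role group by level, and up to 4 called per other list. Members named outside this rule, such as pathway neighbours, were chosen after their values were seen, and 1 gene within the rule is not reported here. Alternatives were a pseudocount of 0.1, no filter, a minimum of 5 FPKM, median-of-ratios scaling, quantile normalization, only the groups compared, a replicate block and leaving out each library.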

Additional observations from a re-analysis of the deposited data

Results flagged for a closer look

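For the 5 kinase genes named among the 20 called at day 30 against day 10, the change at day 30 differed from the change at day 10, both against before exposure, by the direct test of day 30 against day 10. The difference as deposited was 1.14 log2 for BRSK2 (LOC413633), 0.96 for the probable kinase LOC107965037, 0.93 for the Cdk5 activator LOC411494, 0.93 for SIK2 (LOC413736) and 0.91 for STK32B (LOC413577). All 3 day 30 libraries lay above both day 10 libraries in each of the 5, which was a condition for naming them and adds no support. Each of the 5 calls was lost with median-ratio scaling, where adjusted p-values from limma ran from 0.0765 to 0.132. No group has 4 or more libraries, so single libraries were not screened as outliers.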

How the results depend on the processing

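At day 10 against before exposure, where 32 kinases were called, the count was 31 with a pseudocount of 0.1 (25.6% lower, against 17.2% of all genes). It was 30 with no filter (21.1% lower, against 12.7%) and 36 with a minimum of 5 FPKM (35.4% lower, against 23.4%). It was 11 with median-of-ratios scaling (8.26% lower, against 5.95%), 12 with quantile normalization (9.09% lower, against 7.01%) and 15 with only the groups compared (11.6% lower, against 9.66%). With both day 10 libraries kept and 1 other library left out, it ran from 19 to 37. The 19 came without before-exposure replicate 3 (15.7% lower, against 10.1% of all genes). The 37 came without day 30 replicate 1 (29.8% lower, against 18.7%). At day 30 against day 10, where 20 were called, it was 5 with no filter, 0 with median-of-ratios scaling, quantile normalization and only the groups compared, and 0 to 26 when 1 library was left out. At day 20 against day 10 it was 0, and 0 to 14 when 1 library was left out. The other 3 comparisons called 0 kinases in every setting. The cause of these shifts was not tested.

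With the replicate number as a block 24 kinases were called at day 10 against before exposure, all lower (19.8%, against 13.7% of all genes). At day 30 against day 10 there were 6, all higher (4.96%, against 4.44%), and 0 kinases were called in the other comparisons. Correlations of the deviations of same-numbered libraries from their group means ran from -0.24 to 0.31 over 15 pairs, 3 of them over 0.1. Of 11 libraries, 4 were closest to their own number. Deviations within a group cancel, so those of the day 10 libraries mirror each other, at -0.22 and 0.22 with the same before-exposure library. These correlations therefore cannot decide whether same-numbered libraries share more than a number, such as a colony, and this was not tested.

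Of the 31 genes lower at day 10, 10 were called with median-of-ratios scaling. Each alternative was run gene by gene only for genes chosen by the naming rule, among them the 12 largest falls. Of these 12, 9 lost the call only without day 10 replicate 2. LOC100577905, LOC413736 and LOC413577 also lost it with both scalings, LOC100577905 and LOC413577 with no filter, LOC100577905 with the block and without before-exposure replicate 1, LOC413736 and LOC413577 without before-exposure replicate 2, and LOC413577 without before-exposure replicate 3. Changes of sign among the reported genes that were run arose in uncalled genes, when 1 library was left out. At day 20 against before exposure their ranges over the left-out libraries were -0.0905 to 0.52 for LOC409409, -0.0503 to 0.38 for LOC411582, -0.13 to 0.42 for LOC412271 and -0.06 to 0.34 for LOC412470. At day 30 against day 20 they were -0.27 to 0.018 for LOC413467, -0.29 to 0.13 for LOC551198 and -0.11 to 0.021 for LOC412667. Depth is unknown, and genes under 1 FPKM were not tested.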

Other observations

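Among the protein kinases outside the word rule, LOC100576901 (cGMP-dependent protein kinase 1), a relative of the foraging kinase of insects, was the only one called higher at day 10. It averaged 4.09 ± 0.05 FPKM at day 10 (SD, n = 2) and 2.11 ± 0.70 FPKM before exposure (SD, n = 3), a relative change of 0.91 ± 0.22 log2 (adjusted p = 0.0362, limma). At day 30 it averaged 1.38 ± 0.27 FPKM, a relative change of -1.32 ± 0.22 against day 10 (adjusted p = 0.0254).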
